A study of Mus musculus with 6 samples.

Results

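The mitochondrial ribosomal protein genes are described here in macrophages grown in culture from the bone marrow of wild-type mice (BMDMs, a primary cell). They were chosen by symbol alone, as the genes named Mrpl or Mrps followed by a number and at most 1 letter. Of 21959 genes in the deposited table, 78 met this rule, 49 with an Mrpl and 29 with an Mrps symbol. The cells had been kept for 24 h in a 1:1 mix of fresh and conditioned medium. Alveolar macrophages, which live in the air sacs of the lung, had conditioned that medium for 48 h. In the HTR2C-positive medium group (3 libraries, P1 to P3) the conditioning cells carried HTR2C, the serotonin receptor 2C. In the HTR2C-negative medium group (3 libraries, N1 to N3) they did not. The conditioning cells came from mice 8 to 12 weeks old, and all receiving cells were wild type. Strain and sex are not stated in the labels, and untreated cells were not analysed here. The labels do not state what a replicate number stands for, be it a culture, an animal or a batch of medium. The p-values thus reflect the variation among 6 samples, and this variation may be technical.

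Mitochondria keep their own ribosome, which translates the few messenger RNAs of the mitochondrial genome into core subunits of the respiratory chain and of ATP synthase. Its RNAs are made inside the organelle, while all of its proteins are encoded in the nucleus, made in the cytosol and imported. Many of these proteins descend from bacterial ribosomal proteins, and others are found in mitochondrial ribosomes alone. A symbol does not always tell the place of the protein. Mrps30 and Mrps18a encode proteins of the large subunit, and Mrps36 encodes a small adaptor of the 2-oxoglutarate dehydrogenase complex (also called Kgd4) and not a ribosomal protein. Sorted by place, 51 of the 78 genes encode proteins of the large subunit, 30 conserved from bacteria and 21 specific to mitochondria. The small subunit has 26, of which 16 are conserved and 10 are specific to mitochondria.

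The libraries held 12843971 to 16031723 counts, and 10177 genes had enough counts to be tested. Of the 78 genes, 77 were tested. Mrpl53 had 0 counts in all 6 libraries, which allows up to 0.171 to 0.265 CPM (counts scaled to a common library total, with TMM factors) depending on the library. That limit is 3 counts and covers counting error alone. The annotated gene Gm42688 covers all 900 bases of the span of Mrpl53 on the same strand and was also at 0. No source used here says how reads in shared sequence were counted. The receiving cells carried the macrophage markers, with 8 of 8 tested and a summed level of 22936 to 25742 CPM with HTR2C-positive and 24281 to 26227 CPM with HTR2C-negative medium. Among them Csf1r, the receptor gene of the growth factor CSF1, had a log2 fold change of 0.63 (edgeR adjusted p = 0.141) with groups that did not overlap, and of 0.36 after correction for GC content and gene length. Itgam was at 0.11 and Adgre1 at -0.08. Htr2c itself had 0 counts in all 6 libraries. Neutrophil markers summed to 984 to 1230 CPM with HTR2C-positive and 813 to 1017 CPM with HTR2C-negative medium, with 7 of 10 tested. Ly6g and Cxcr2, which define the mature cell, were at 0 in all 6 libraries. S100a8 made up most of the sum, at 722 to 926 CPM with HTR2C-positive and 581 to 753 CPM with HTR2C-negative medium, and Ngp was at 129 to 148 CPM and 115 to 147 CPM. At an unadjusted edgeR p under 0.05, 2 of the 7 were higher and 0 lower, beside 7.9% and 8.71% of all tested genes. They were Camp (log2 fold change 0.53, edgeR adjusted p = 0.192) and S100a9 (0.36, edgeR adjusted p = 0.248). Both had separate groups, beside 10.9% of all tested genes with separate groups and a higher value. After GC and length correction they were at 0.27 and 0.47. The rest of the 7 were also above 0, with overlapping groups. Mpo was at 0.66, Ltf at 0.64, Elane at 0.59, S100a8 at 0.28 and Ngp at 0.10. After that correction these values were 0.32, 0.59, 0.24, 0.43 and 0.12. Mpo, Ltf and Elane were at 4.57 CPM or less in every library. Proliferation markers summed to 105 to 113 CPM with HTR2C-positive medium and 112 to 135 CPM with HTR2C-negative medium. Of 8 tested, 0 were higher and 1 lower by that unadjusted threshold, beside 7.9% and 8.71% of all tested genes. It was Mki67 (-0.42, edgeR adjusted p = 0.264, and -0.33 after that correction). Ccnb1 was at -0.36 (-0.17). Both had separate groups, beside 11.5% of all tested genes with a lower value. The rest overlapped, with Mcm2 at 0.41, Top2a at 0.17, Mcm5 at 0.02, Ccne2 at 0.01, Pcna at -0.17 and Cdk1 at -0.18. Fibroblast markers summed to 61.6 to 76.8 CPM with HTR2C-positive and 58.0 to 67.5 CPM with HTR2C-negative medium. Of 5 tested, 1 was higher and 0 lower by that unadjusted threshold, with the same background shares. Pdgfrb was higher (0.72, and 0.42 after that correction) and Dcn lower (-0.22, and -0.004), both with separate groups. For all tested genes those shares were 10.9% and 11.5%. The rest of the 5 were above 0 with overlapping groups, Col3a1 at 0.58, Col1a1 at 0.50 and Col1a2 at 0.36. After that correction they were at 0.40, 0.03 and 0.04. The part of these markers in the results below was not tested.

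The upstream sequences of 5 genes are printed because these genes are described below. Letters bound by known regulators of mitochondrial genes can be looked for in them. Nuclear respiratory factor 1 (NRF1), ETS factors such as GABPA, and YY1 are known activators of nuclear genes for mitochondrial proteins. Mrps26, Mrpl12 and Mrps31 had an unadjusted edgeR p under 0.05 between the media, and none an adjusted p under 0.05. Mrpl54 also had such an unadjusted p but had no window. Mrpl45 encodes the membrane anchor of the ribosome, and Mrps18a is a paralog with a small difference. Each line gives the 250 bases before the RefSeq gene start on GRCm38.p6, 5′ to 3′ on the strand of the gene, which is the plus strand for all 5. The windows are chr2:130563507-130563756 for Mrps26, chr11:120484387-120484636 for Mrpl12, chr8:22411090-22411339 for Mrps31, chr11:97315466-97315715 for Mrpl45 and chr17:46110754-46111003 for Mrps18a. Capitals mark a match on either strand to the ETS letters CCGGAAG, to the NRF1 consensus or to the YY1 letters ATGGCGG.
Mrps26: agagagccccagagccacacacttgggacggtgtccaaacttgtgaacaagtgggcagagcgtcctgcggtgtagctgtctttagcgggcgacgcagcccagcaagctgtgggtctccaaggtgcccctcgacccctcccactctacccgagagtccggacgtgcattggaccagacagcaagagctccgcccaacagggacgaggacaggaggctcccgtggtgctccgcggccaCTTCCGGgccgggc
Mrpl12: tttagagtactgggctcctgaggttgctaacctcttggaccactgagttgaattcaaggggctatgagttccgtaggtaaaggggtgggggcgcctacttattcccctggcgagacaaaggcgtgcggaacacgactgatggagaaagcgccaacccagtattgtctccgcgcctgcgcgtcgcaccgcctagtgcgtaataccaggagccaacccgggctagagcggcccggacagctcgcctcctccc
Mrps31: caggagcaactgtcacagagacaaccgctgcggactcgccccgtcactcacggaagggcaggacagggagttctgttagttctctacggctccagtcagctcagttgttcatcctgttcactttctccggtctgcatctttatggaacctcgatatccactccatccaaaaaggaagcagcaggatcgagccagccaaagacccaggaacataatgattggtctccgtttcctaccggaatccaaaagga
Mrpl45: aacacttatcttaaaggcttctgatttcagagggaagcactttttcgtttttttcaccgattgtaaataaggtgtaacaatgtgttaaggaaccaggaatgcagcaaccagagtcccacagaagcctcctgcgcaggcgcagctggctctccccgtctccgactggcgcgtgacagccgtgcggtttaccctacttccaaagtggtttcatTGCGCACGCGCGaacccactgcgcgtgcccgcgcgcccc
Mrps18a: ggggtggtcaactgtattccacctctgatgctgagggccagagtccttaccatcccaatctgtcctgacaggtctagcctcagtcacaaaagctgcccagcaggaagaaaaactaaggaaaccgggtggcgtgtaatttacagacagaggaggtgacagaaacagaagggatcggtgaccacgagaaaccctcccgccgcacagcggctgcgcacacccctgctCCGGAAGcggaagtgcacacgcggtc
The Mrps26 sequence holds the ETS letters on the opposite strand close to the gene start, and that of Mrps18a holds them in the forward direction. That of Mrpl45 holds an NRF1 consensus match. The sequences of Mrpl12 and Mrps31 hold no match to any of the 3.

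The RefSeq table of windows reaching from 250 bases before to 50 bases after a gene start had 75 windows for 69 of the 78 genes. It had none for Mrps34, Mrpl19, Mrpl15, Mrps35, Mrpl38, Mrps28, Mrpl54, Mrpl13 and Mrpl4. Both strands were searched. The ETS letters stood in 34.7% of the windows of mitochondrial ribosomal protein genes, in 19.0% of the windows of all tested genes and in 8.86% of all windows in the table. For the NRF1 consensus these shares were 6.67%, 3.15% and 1.27%, and for the YY1 letters they were 17.3%, 8.45% and 4.05%. At least 1 of the 3 was found in 37 of 75 windows, 49.3%, beside 27.6% of the windows of tested genes. Shares of common promoter elements lay nearer to those of tested genes, with CCAAT in 40.0% and 37.3%, TATAAA in 6.67% and 7.17%, and the E-box CACGTG in 9.33% and 10.1%. None of the 3 letter strings contains another. A match describes letters alone, and no test was made of the shares. The YY1 letters and the NRF1 consensus were taken after the shares of longer and looser forms had been seen. Their shares, and the share with at least 1 of the 3, thus cannot serve as evidence of an excess.

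Levels of the 77 genes with counts spanned a 228-fold range per length. The deposited gene lengths ran from 607 to 8631 bases. Whether they match the transcripts present is unknown from these sources, so levels compared between genes are uncertain to that extent. The deposited FPKM, counts scaled to gene length and library total, averaged over the 6 libraries from 0.548 for Mrps34 to 125 for Mrpl27, with a median of 8.91. Mrpl27, which encodes a large-subunit protein whose bacterial homologue reaches the peptidyl transferase centre, was at 104, 135 and 142 FPKM with HTR2C-positive medium and 130, 113 and 126 FPKM with HTR2C-negative medium. It had the highest level of these genes in each of the 6 libraries. Mrpl52 followed with a mean of 65.0 FPKM, then Mrpl55 with 57.3 and Mrpl45 with 56.4. The ranks of these 3 overlapped from library to library, between 2 and 4 for Mrpl52, 3 and 4 for Mrpl55 and 2 and 7 for Mrpl45, so their order is not resolved. Mrpl45 encodes the protein that anchors the ribosome to the inner membrane beside the exit of the peptide tunnel. At the low end, Mrps34 was at 0.436, 0.708 and 0.623 FPKM with HTR2C-positive medium and 0.490, 0.670 and 0.363 FPKM with HTR2C-negative medium, from 12 to 23 counts per library. Mrps35 (0.585 FPKM), Mrps5 (0.678) and Mrps6 (1.07) came next, and the ranks of these 4 genes also overlapped between libraries.

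**Figure D1:**
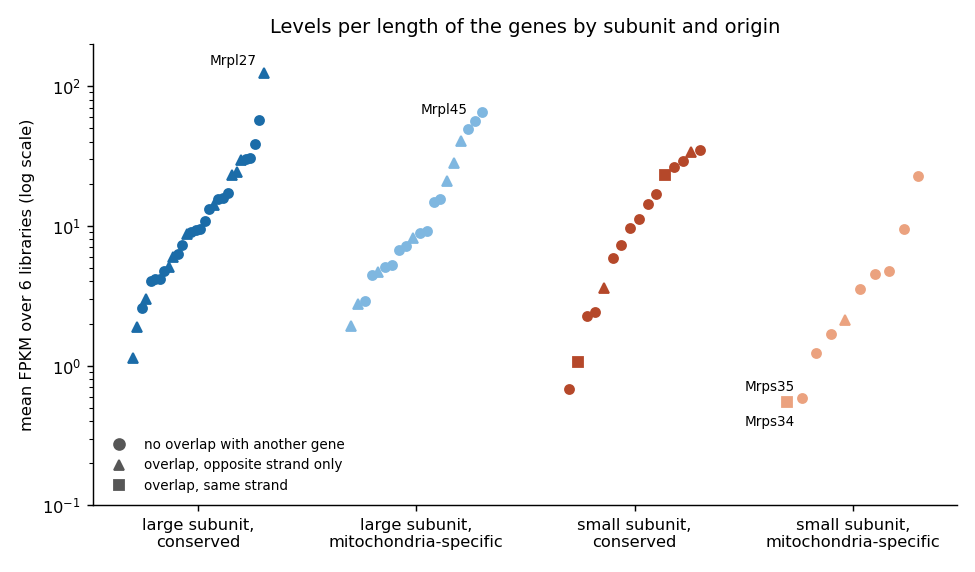
Mean FPKM over the 6 libraries (log scale) of each gene with counts, grouped by ribosomal subunit and by origin, with the marker shape showing overlap with another annotated gene. Mrpl27 stands highest at 125 FPKM and Mrps34 lowest at 0.548 FPKM, and the mitochondria-specific genes of the small subunit have the lowest class median, 2.82 FPKM.

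By class, the median FPKM was 2.82 for the 10 mitochondria-specific genes of the small subunit, 10.4 for its 16 conserved genes, 9.41 for the 30 conserved genes of the large subunit and 8.15 for its 21 mitochondria-specific genes. The order of the 77 genes was alike in all libraries, with Spearman correlations of FPKM between pairs of libraries of 0.955 to 0.991 across these genes, which share their lengths and counting. Related members also differed in level. Mrps18a, Mrps18b and Mrps18c, 3 paralogs whose proteins occupy different places in the ribosome, averaged 20.9, 3.52 and 35.1 FPKM. Annotated spans also overlap. Of the 78 genes, 25 overlapped another gene, 21 on the opposite strand alone (median 8.15 FPKM) and 4 on the same strand, while the other 53 had a median of 9.25 FPKM. The 4 were Mrpl53 at 0, Mrps34 at 0.548, Mrps6 at 1.07 and Mrps24 at 23.2 FPKM, and 3 of them are among the 5 lowest of the 78 genes. Whether the counting used strand is unknown from these sources, and the levels are uncertain to that extent. Mrpl46 and Mrps11, head to head on chromosome 7, overlap by 413 bases on opposite strands and were at 40.6 and 3.61 FPKM, with log2 fold changes between the media of -0.09 and -0.10.

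Between the media, no mitochondrial ribosomal protein gene passed the test, and the fold changes lay on both sides of 0. The median log2 fold change, HTR2C-positive minus HTR2C-negative medium, was -0.01 for the 77 tested genes, with quartiles of -0.14 and 0.13, beside 0.02 and quartiles of -0.26 and 0.32 for all 10177 tested genes. A positive value was found in 38 genes and a negative value in 39. In edgeR's quasi-likelihood test with Benjamini-Hochberg adjustment over all tested genes, 0 of 77 had an adjusted p under 0.05, beside 0% of all tested genes. At an unadjusted p under 0.05 there were 4 of 77, or 5.19%, 3 higher and 1 lower, beside 16.6% of all tested genes (7.9% higher and 8.71% lower). DESeq2 called 0 of the 72 genes to which it gave an adjusted p, beside 5.77% of all genes given one, and limma-voom called 0. The libraries of the 2 groups did not overlap in CPM in 8 of the 77 genes, 10.4%, beside 22.3% of all tested genes. Of these 8, 5 were higher and 3 lower, beside 10.9% and 11.5% of all tested genes. In bulk RNA, fewer cells of a type and less RNA per cell cannot be told apart.

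**Figure D2:**
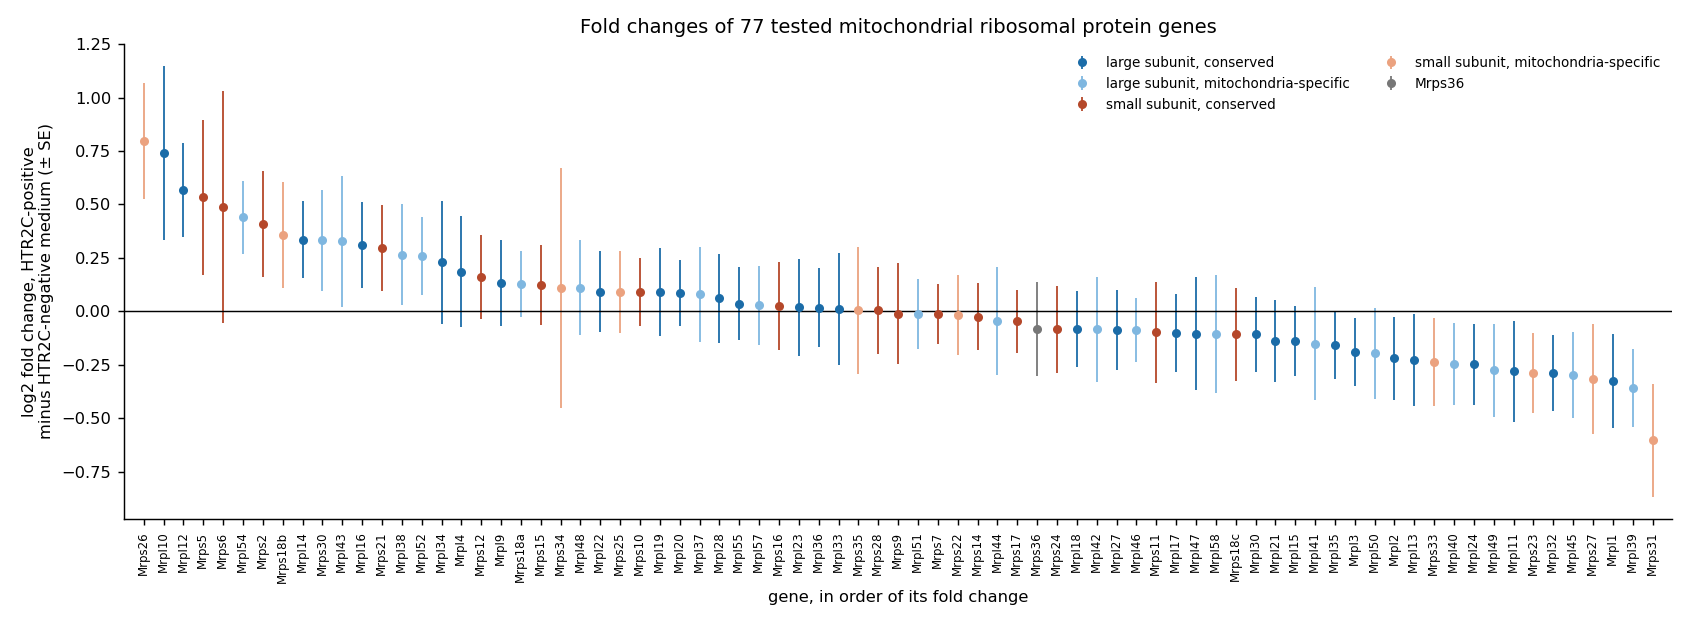
Log2 fold change, HTR2C-positive minus HTR2C-negative medium, of each of the 77 tested genes in order of size, with the standard error of the fit as the vertical line and the class of the protein as the colour. The values run from 0.80 for Mrps26 to -0.60 for Mrps31, and the classes are mixed along the order.

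Most fold changes were small. The absolute log2 fold change was below 0.2 in 47 of 77 genes, 61.0%, beside 36.6% of all tested genes, and below 0.5 in 72, 93.5%, beside 75.1%. No gene of the 77 reached 1, while 95.9% of all tested genes were below 1. The standard errors ran from 0.14 to 0.56 with a median of 0.20, so fold changes below 0.2 were no larger than the usual error of a gene. Both subunits had medians near 0, at -0.03 for the 50 tested large-subunit genes (24 positive and 26 negative) and 0.01 for the 26 small-subunit genes (14 positive and 12 negative). By origin, the median was 0.01 for the 46 conserved and -0.01 for the 30 tested mitochondria-specific genes. The mean log2 CPM of the large-subunit genes minus that of the small-subunit genes was 0.83, 0.88 and 0.93 with HTR2C-positive medium and 0.95, 0.89 and 0.98 with HTR2C-negative medium. These ranges overlapped. The difference is not per length, so it can be compared between libraries only.

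The 4 genes with the smallest p were read in every library. Mrps26 (ENSMUSG00000037740, chromosome 2, 130405662 to 130410615, GRCm39), which encodes a mitochondria-specific protein of the small subunit, was at 7.19, 6.55 and 6.41 CPM with HTR2C-positive medium and 3.18, 4.33 and 4.03 CPM with HTR2C-negative medium. All 3 libraries with HTR2C-positive medium were above all 3 others. The group means were 6.72 ± 0.417 and 3.85 ± 0.596 CPM (SD, n = 3 each), a log2 fold change of 0.80 (SE 0.27, edgeR adjusted p = 0.178). It rests on 99 to 126 counts per library with HTR2C-positive medium and 36 to 63 with HTR2C-negative medium. Its value stayed between 0.68 and 0.93 under every other setting tried.

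Mrpl54 (ENSMUSG00000034932, chromosome 10, 81100547 to 81102768), a mitochondria-specific protein gene of the large subunit, was at 43.3, 54.1 and 41.5 CPM with HTR2C-positive medium and 30.1, 34.4 and 37.8 CPM with HTR2C-negative medium. The groups did not overlap, with the lowest of P1 to P3 just above the highest of N1 to N3. Its log2 fold change was 0.44 (SE 0.17, edgeR adjusted p = 0.223). Mrpl54 has a transcript GC content of 60.4%, and after removal of the trend that each library showed with GC content and length the value was -0.08.

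Mrpl12 (ENSMUSG00000039640, chromosome 11, 120375439 to 120379891) encodes the protein of the flexible stalk that recruits translation factors, the homologue of bacterial L7/L12, which is also known to bind mitochondrial RNA polymerase. It was at 10.8, 12.9 and 15.8 CPM with HTR2C-positive medium and 8.49, 8.80 and 9.34 CPM with HTR2C-negative medium, again with no overlap. Its log2 fold change was 0.57 (SE 0.22, edgeR adjusted p = 0.226), and 0.30 after GC and length correction. Mrpl10, whose product holds the stalk to the ribosome, was at 6.73, 4.50 and 4.84 CPM with HTR2C-positive medium and 2.03, 5.57 and 1.95 CPM with HTR2C-negative medium. The groups overlapped through N2, and the log2 fold change was 0.74 (SE 0.41, edgeR adjusted p = 0.381), or 1.43 without N2.

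Mrps31 (ENSMUSG00000031533, chromosome 8, 22901377 to 22919681), a mitochondria-specific protein gene of the small subunit, was at 4.34, 4.37 and 4.41 CPM with HTR2C-positive medium and 6.45, 7.77 and 5.71 CPM with HTR2C-negative medium. It is the gene of the 77 whose value was lowest relative to HTR2C-negative medium, with a log2 fold change of -0.60 (SE 0.27, edgeR adjusted p = 0.278) and of -0.38 after GC and length correction. The counts were 66 to 76 with HTR2C-positive medium and 73 to 113 with HTR2C-negative medium. The remaining genes with separated groups had smaller differences. Mrps2 was at 9.02, 6.75 and 7.92 CPM with HTR2C-positive medium and 6.37, 6.12 and 5.38 CPM with HTR2C-negative medium (log2 fold change 0.41). Mrpl16 was at 14.2, 14.9 and 14.7 CPM with HTR2C-positive medium and 11.4, 13.8 and 10.1 CPM with HTR2C-negative medium (0.31). Both encode proteins conserved from bacteria. Mrps23 was at 12.3, 14.1 and 13.5 CPM with HTR2C-positive medium and 15.03, 16.6 and 16.9 CPM with HTR2C-negative medium (-0.29). Mrpl3, whose bacterial homologue lies near the peptidyl transferase centre, was at 25.9, 25.01 and 24.0 CPM with HTR2C-positive medium and 28.1, 28.9 and 28.5 CPM with HTR2C-negative medium (-0.19). Their unadjusted p-values in the edgeR fit were 0.122, 0.148, 0.150 and 0.254. After GC and length correction the 4 values were 0.45, 0.37, -0.35 and -0.07.

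**Figure D3:**
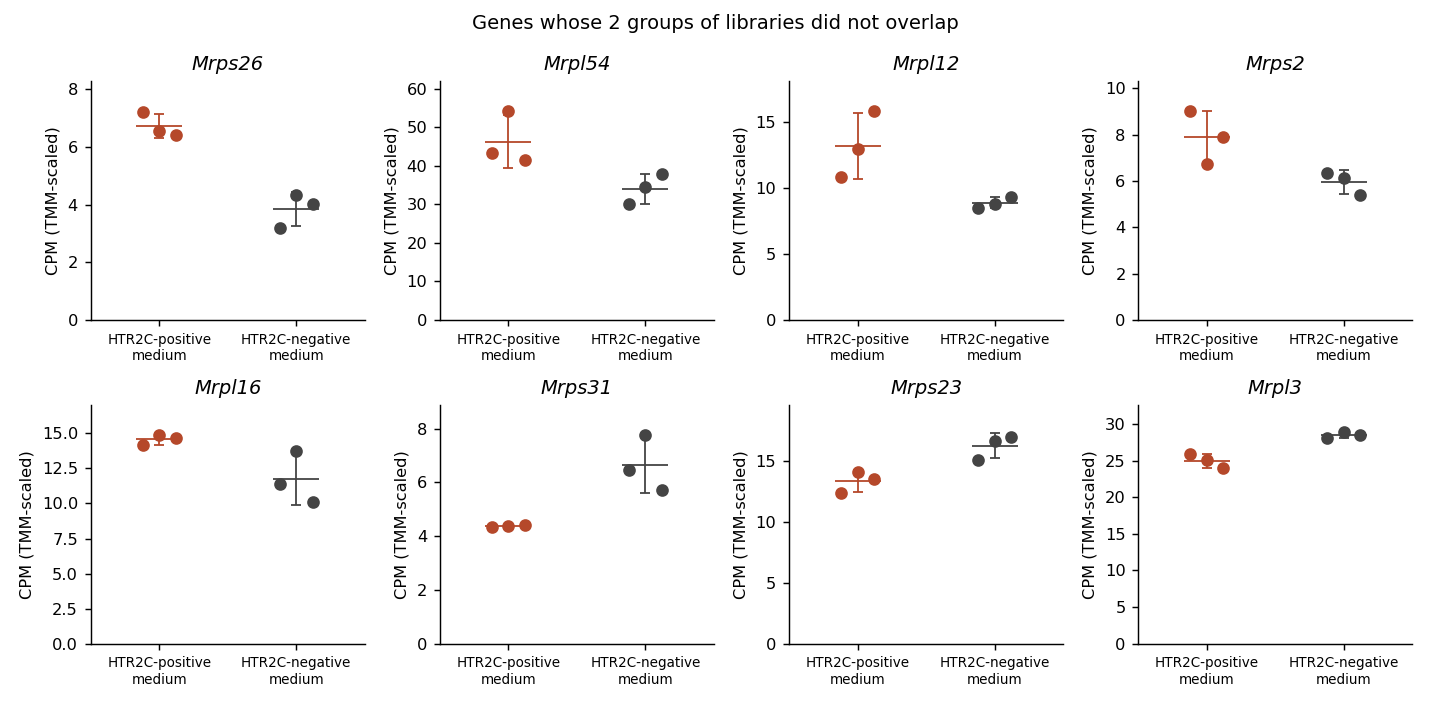
TMM-scaled CPM in each library (points) of the 8 genes whose groups did not overlap, with HTR2C-positive medium left of HTR2C-negative medium, and the mean and SD of 3 libraries as the line and bar. Mrps26, Mrpl54, Mrpl12, Mrps2 and Mrpl16 are higher and Mrps31, Mrps23 and Mrpl3 lower with HTR2C-positive medium, and none passed the adjusted threshold.

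Other members with well-known roles had overlapping groups. Mrpl58, the peptidyl-tRNA hydrolase also called ICT1 that rescues stalled mitochondrial ribosomes, was at 9.82, 22.0 and 19.2 CPM with HTR2C-positive medium and 16.5, 15.3 and 22.9 CPM with HTR2C-negative medium (log2 fold change -0.10, SE 0.28). Mrpl45, the membrane anchor, was at 89.3, 148 and 161 CPM with HTR2C-positive medium and 179, 150 and 160 CPM with HTR2C-negative medium (-0.30, SE 0.20). In both, P1 was the lowest of the 6 libraries. Mrpl14, to which the ribosome assembly and silencing factor Malsu1 binds, was at 25.6, 34.9 and 33.5 CPM with HTR2C-positive medium and 24.7, 22.6 and 27.2 CPM with HTR2C-negative medium (0.33, and -0.13 after GC and length correction). Mrpl32, whose precursor is matured by the m-AAA protease of the inner membrane, was at 50.8, 63.7 and 66.5 CPM with HTR2C-positive medium and 86.7, 58.8 and 75.4 CPM with HTR2C-negative medium (-0.29, and -0.04 after that correction). Mrps30 had a log2 fold change of 0.33, Mrps36 of -0.08, and the paralogs Mrps18a, Mrps18b and Mrps18c of 0.13, 0.36 and -0.11. Of the other genes named by rank of p, Mrps21 was at 0.30, Mrpl39 at -0.36, Mrpl1 at -0.33, Mrpl24 at -0.25 and Mrpl40 at -0.25 on the log2 fold change scale. The groups of all of these overlapped. After that correction Mrps30 was at 0.50, Mrps36 at 0.05, Mrps18a at -0.20, Mrps18b at 0.27, Mrps18c at 0.11, Mrps21 at 0.11, Mrpl39 at -0.25, Mrpl1 at -0.04, Mrpl24 at -0.18 and Mrpl40 at -0.43.

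The members shared differences between libraries of the same group. P1 was the lowest of the 6 libraries for 35 of the 77 genes and N2 for 16, while P2 was the highest for 26. Within its own group, P1 was below P2 and P3 in 51 of 77 genes, 66.2%, beside 34.9% of all tested genes. N2 was below N1 and N3 in 49 genes, 63.6%, beside 37.0%, and P2 was above P1 and P3 in 47, 61.0%, beside 31.9%. Averaged over the 77 genes, the log2 deviation from the mean of a gene was -0.13 in P1, 0.15 in P2 and 0.01 in P3 with HTR2C-positive medium, and 0.05 in N1, -0.10 in N2 and 0.01 in N3 with HTR2C-negative medium. The ranges of the groups overlapped. The part of this deviation that followed GC content and length was -0.03 to 0.04 per library. These values are after TMM scaling and are relative to the other genes of the same library.

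**Figure D4:**
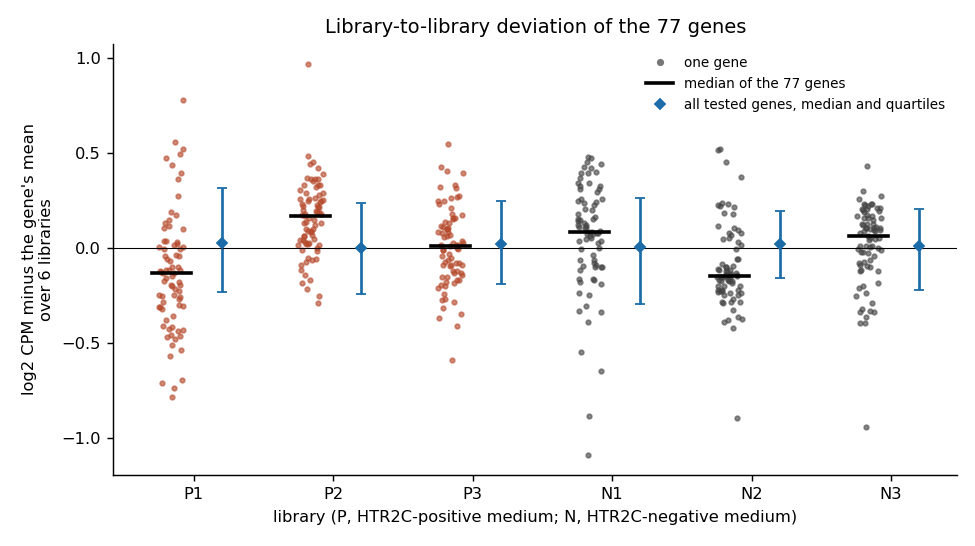
Log2 CPM minus the mean of the gene over 6 libraries for each of the 77 genes (points), with their median (black line) and the median and quartiles of all tested genes (blue). The points of P1 and N2 sit mostly below 0 and those of P2 above 0, while the medians of all genes stay near 0 in every library.

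Summed over the genes of the large subunit, CPM was 1495, 1989 and 1834 with HTR2C-positive medium and 1990, 1640 and 1899 with HTR2C-negative medium. For the small subunit the sums were 534, 658 and 592 CPM with HTR2C-positive medium and 624, 554.6 and 612 CPM with HTR2C-negative medium. P1 and N2 were the lowest of their groups in both subunits. Before TMM scaling, the 78 genes took 0.230%, 0.257% and 0.261% of all counts with HTR2C-positive medium and 0.232%, 0.234% and 0.235% with HTR2C-negative medium. P1 was the lowest of the 6, and P2 and P3 were the highest. P1 and N2 also stood apart from the rest in other features. The beta-actin gene Actb, named after its values were seen, took 7.03%, 13.5% and 10.3% of counts with HTR2C-positive medium and 11.5%, 8.14% and 11.6% with HTR2C-negative medium. Adgre1, the F4/80 antigen gene of mature macrophages, was at 1846, 897 and 922 CPM with HTR2C-positive medium and 1095, 1694 and 1073 CPM with HTR2C-negative medium. P1 and N2 thus had the lowest Actb share and the highest Adgre1 level, and the part of these features in the result was not tested. The median log2 fold change of the 77 genes was 0.08 without P1 and -0.06 without N2. Without both it was 0.01, with 6 genes above and 1 below at an unadjusted p under 0.05, beside 11.2% and 12.7% of all genes tested then. Leaving out both gave 1107 genes with an edgeR adjusted p under 0.05 over the whole table, 10.9%, and 0 of the 77. Since P1 and N2 stood apart in these same data, these counts cannot serve as evidence of a difference between the media. The median within-group SD of log2 CPM was 0.249 for the members and 0.303 for all tested genes.

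Fold changes of the members varied with GC content, as those of all tested genes did. Across the 77 genes the Pearson correlation of transcript GC content with the log2 fold change was 0.35 and the Spearman correlation 0.39, beside 0.53 and 0.56 across 10162 tested genes with a GC value. Genes of the same libraries are not independent replicates, and no test was made. The median log2 fold change was -0.11 in the 14 members of at most 45% GC, -0.01 in the 25 from 45% to 50%, 0.01 in the 22 from 50% to 55% and 0.14 in the 16 above 55%. For all tested genes the medians of these classes were -0.25, -0.07, 0.16 and 0.40. The members had a median GC content of 49.9%, near the 49.4% of all tested genes, and a median gene length of 2533 bases, beside 4570. After correction for the trend with GC content and length, the median of the 77 genes was -0.04, beside 0.01 for all genes. At an unadjusted p under 0.05 there were then 2 members higher and 1 lower, beside 4.06% and 5.59% of all tested genes. The higher were Mrps26 (0.80) and Mrps14 (0.33, against -0.02 without correction), and the lower was Mrpl2 (-0.59, against -0.22 without correction). Mrpl54, Mrpl12 and Mrps31 were no longer past that threshold, with unadjusted edgeR p-values of 0.578, 0.197 and 0.163. Mrps14, with the lowest GC content of the 77 genes at 39.6%, was at 73.5, 96.8 and 87.1 CPM with HTR2C-positive medium and 95.9, 79.8 and 86.2 CPM with HTR2C-negative medium. Mrpl2, with 57.52% GC, was at 18.1, 20.4 and 17.8 CPM with HTR2C-positive medium and 25.2, 17.1 and 23.3 CPM with HTR2C-negative medium. Both genes had overlapping groups before correction. The trend was fitted within each library, and a real effect of the medium that follows GC content would be lost with it.

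**Figure D5:**
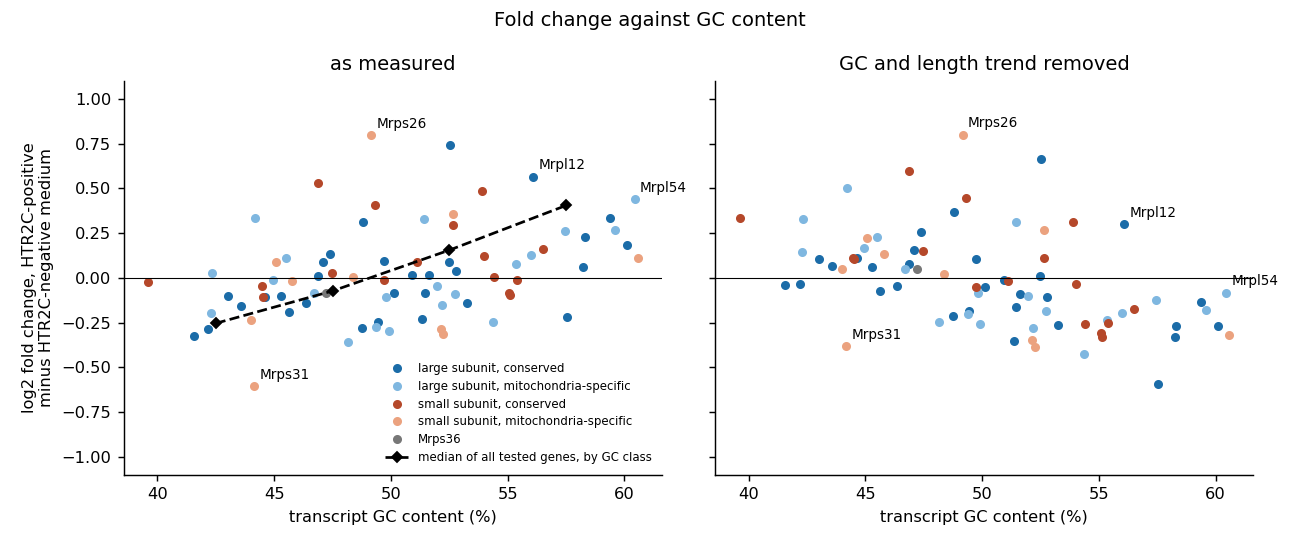
Log2 fold change, HTR2C-positive minus HTR2C-negative medium, against transcript GC content for the 77 genes (points, coloured by class), as measured (left, with the medians of all tested genes by GC class as diamonds) and after GC and length correction (right). Mrps26 keeps a log2 fold change of 0.80 on the right, while Mrpl54 moves to -0.08 and Mrpl12 to 0.30.

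Other genes that serve the mitochondrial ribosome also had 0 adjusted calls in the edgeR fit. Of 5 ribosomal proteins with other names, an unadjusted p under 0.05 was found for 0 higher and 1 lower, beside 7.9% and 8.71% of all tested genes, with a median log2 fold change of 0.16 (0.03 after GC and length correction). The lower was Ptcd3, a pentatricopeptide repeat protein of the small subunit, at 24.5, 26.7 and 24.2 CPM with HTR2C-positive medium and 37.9, 39.7 and 31.9 CPM with HTR2C-negative medium. Its groups did not overlap (log2 fold change -0.54, SE 0.17, edgeR adjusted p = 0.150), and the value was -0.33 after that correction. Aurkaip1 had a log2 fold change of 0.24 (-0.05 after that correction) and Gadd45gip1, at 1.15 CPM or less in every library, of 0.69 (0.48). The remaining members of that list, Chchd1 and the GTP-binding small-subunit protein Dap3, were at 0.16 and 0.11.

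Of 14 translation factors of the mitochondria, an unadjusted p under 0.05 was found for 1 higher and 0 lower, against background shares of 7.9% and 8.71% (median 0.03). It was Tufm, which encodes the elongation factor that brings aminoacyl-tRNA to the ribosome, at 7.93, 10.5 and 8.64 CPM with HTR2C-positive medium and 7.16, 6.67 and 4.17 CPM with HTR2C-negative medium (log2 fold change 0.59, edgeR adjusted p = 0.295). The groups did not overlap, and after GC and length correction the value was 0.33 and no longer past the unadjusted threshold. The ribosome recycling factor gene Gfm2 had a log2 fold change of -0.30 (-0.28 after that correction) and the initiation factor gene Mtif3 of -0.35 (-0.54), the 1 factor past the unadjusted threshold then. Among 26 tested of 29 genes listed for ribosome assembly, the median was 0.11 and became -0.02 after that correction. By that unadjusted threshold 1 was higher and 1 lower. These were Mpv17l2 (0.44, and -0.03 after correction) and Mterf3 (-0.39, and -0.15), and the helicase gene Ddx28 was at 0.43 (0.18) with overlapping groups. Corrected, 0 genes of that list were higher and 1 was lower, beside 4.06% and 5.59% of all tested genes. The lower was Sirt7 (-0.54, against -0.07 without correction). It encodes a nuclear deacetylase and not an assembly protein, so this call does not describe assembly proteins.

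Of 21 tested genes of mitochondrial transcription and RNA processing among 22, an unadjusted p under 0.05 was found for 2 higher and 3 lower, where 7.9% and 8.71% of all tested genes were (median -0.09, and 0.05 after GC and length correction). Pnpt1, which encodes the RNA-degrading polynucleotide phosphorylase, was at 74.4, 52.7 and 73.1 CPM with HTR2C-positive medium and 105, 92.5 and 88.0 CPM with HTR2C-negative medium (log2 fold change -0.51, edgeR adjusted p = 0.165). Trmt10c, a subunit of mitochondrial RNase P, was at 14.8, 12.7 and 14.4 CPM with HTR2C-positive medium and 23.3, 17.3 and 20.6 CPM with HTR2C-negative medium (-0.55, edgeR adjusted p = 0.190). Neither gene's groups overlapped, and after that correction the values were -0.19 and -0.24. Fastk had a log2 fold change of 1.34 (0.97 after that correction), with 4.22 CPM or less in every library. Tefm and Tbrg4, named after their values were seen, were at -0.65 and 0.65, and at -0.39 and 0.27 after that correction, no longer past the unadjusted threshold. Corrected, 0 genes of the list were higher and 1 was lower, beside 4.06% and 5.59% of all tested genes. The lower was the mitochondrial RNA polymerase gene Polrmt (-0.77, against -0.22 without correction).

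The messenger RNAs that these ribosomes translate had 0 genes past the same unadjusted threshold among 10 tested of 13, with a median of 0.04. After GC and length correction the median was 0.37 and 4 of the 10 were higher at an unadjusted p under 0.05, with 0 lower and 0 adjusted calls, beside 4.06% higher among all tested genes. Their GC content, 34.1% to 39.9%, lay near the low end of the 32.8% to 68.7% of all tested genes. mt-Nd1, which encodes a subunit of respiratory complex I, was at 192, 219 and 237 CPM with HTR2C-positive medium and 190, 125 and 212 CPM with HTR2C-negative medium. Its log2 fold change was 0.30, and 0.71 after correction. mt-Nd2, another complex I subunit gene, was at 0.11 and 0.57, mt-Cytb of complex III at 0.11 and 0.49, and the cytochrome oxidase gene mt-Co2, at 6.02 CPM or less in every library, at 0.45 and 0.72, without and with correction. mt-Co1, of the same oxidase, was at -0.24 and 0.15. The groups of all 5 overlapped before correction. Whether the trend fitted over all genes holds for these transcripts was not tested. Levels within the set lay far apart, with mt-Co1 at 2112 to 2942 CPM, mt-Co3 at 2.41 to 4.43 CPM and mt-Atp6 at 4.61 to 8.93 CPM. The untested mt-Atp8, mt-Nd3 and mt-Nd4l had 0 to 5 counts per library. How reads in shared sequence were counted is unknown, so these values may not be transcript levels. The cause of the spread was not tested.

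Of 13 tested regulators among 16, an unadjusted p under 0.05 was found for 3 higher and 1 lower, beside 7.9% and 8.71% of all tested genes (median 0.03, and -0.04 after GC and length correction). Gabpa, the DNA-binding ETS subunit whose letters are marked in the printed sequences, was at 21.7, 15.2 and 18.4 CPM with HTR2C-positive medium and 29.2, 28.9 and 24.6 CPM with HTR2C-negative medium. The groups did not overlap (log2 fold change -0.58, SE 0.19, edgeR adjusted p = 0.165), and the value was -0.32 after that correction. Members with the ETS letters in their window had a median log2 fold change of 0.01 (25 genes), and those with a window but no such letters had -0.05 (43 genes). Nrf1 was at 19.5, 12.4 and 16.5 CPM with HTR2C-positive medium and 16.6, 17.3 and 13.4 CPM with HTR2C-negative medium (0.03). Members with the NRF1 consensus had a median of -0.10 (5 genes) and those without -0.01 (63 genes). Yy1 was at 0.36 with overlapping groups, and members with the YY1 letters had a median of 0.09 (12 genes) and those without -0.02 (56 genes). The 3 regulators that were higher were Crtc2 (0.67), Rptor (0.71), a part of the mTORC1 kinase complex, and Atf4 (0.34), the last of which, like Nrf1 and Yy1, was named after its values were seen. Their groups did not overlap, and after that correction the values were 0.29, 0.32 and 0.15. Corrected, 0 regulators were higher and 2 were lower, beside 4.06% and 5.59% of all tested genes. The 2 were Myc (-0.51, against -0.36 without correction) and Mtor (-0.57, against -0.29). Ppargc1a, which encodes the coactivator PGC-1 alpha, had 0 to 3 counts per library and was not tested.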

How the data were processed

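RNA was isolated with Trizol, and the library kit was VAHTS Universal V6, per the labels. Tools named in the submitters' processing notes are HISAT2, StringTie, fastp and edgeR, on build GRCm39 and with no versions. The deposited counts are unnormalized whole reads per gene, per the file headers. The deposited FPKM equal count divided by gene length and total count (largest relative difference 3.80e-07).

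Counts passing filterByExpr were fitted in R 4.3.3 with edgeR 4.0.16 (TMM factors, robust quasi-likelihood F test, no covariates), with Benjamini-Hochberg adjustment over all tested genes. The fit was tested on simulated data. CPM are TMM-scaled, and fold changes are log2, HTR2C-positive minus HTR2C-negative. Transcript GC content came from GENCODE M21, which gave a value for 21851 genes and all 78 members. Its coordinates were not used. A smooth trend on GC content and length was fitted in each library with mgcv 1.9.3. Subunit classes were assigned from general knowledge of the ribosome's structure. Promoter windows are from RefSeq. The YY1 letters and the NRF1 consensus replaced longer and looser forms after the shares of those forms had been seen.

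Members and lists were chosen with earlier results of these data known. Named by rule were the 8 members with the smallest p in each direction, the 4 highest and 4 lowest by FPKM, 8 with special roles, and 3 genes of each other list. Mrpl3, Mrps24, Mrpl46, Mrps11, Mrps14, Mrpl2, Chchd1, Dap3, Sirt7, Polrmt, Myc, Mtor, mt-Nd2, mt-Cytb, Camp, S100a8, S100a9, Ngp and Actb were named outside it, after their values were seen. So were mt-Co3, mt-Atp6, mt-Atp8, mt-Nd3, mt-Nd4l, Mpo, Ltf, Elane, Mki67, Ccnb1, Pdgfrb and Dcn. Mcm2, Top2a, Mcm5, Ccne2, Pcna, Cdk1, Col3a1, Col1a1 and Col1a2 were as well. Alternatives were RLE factors, total counts alone, 2 other filters, limma-voom from limma 3.58.1, DESeq2 1.42.0, a block for replicate number, each library left out, N2 and P1 left out, and the GC and length trend removed with and without the block.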

Additional observations from a re-analysis of the deposited data

How the results depend on the processing

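Under the 16 alternatives 0 mitochondrial ribosomal protein genes reached an adjusted p under 0.05. Of all genes, 10.9% did with N2 and P1 left out, 5.77% with DESeq2, 2.84% with no count filter, 1.97% without N2, 1.8% without P1 and 0% under each of the others. The log2 fold changes of the 50 genes named by rule kept their direction and side of the threshold in 743 of 799 cases. Shares of all tested genes stand in parentheses beside the next counts. Members higher at an unadjusted p under 0.05, 3 as reported (7.9%), were 6 with total counts alone (11.3%), 6 with N2 and P1 left out (11.2%) and 1 after GC and length correction with the replicate block (2.64%). Those lower, 1 as reported (8.71%), were 0 with total counts alone (3.83%), 0 with no count filter (6.39%) and 0 with the replicate block (6.1%). With 1 library left out, the higher count ran from 1 to 6, with 1 without N1 (3.74%), 5 without N2 (10.3%) and 6 without P1 (8.07%). The lower ran from 0 to 3, with 0 without N1 (4.32%), P1 (9.05%) or P3 (6.78%) and 3 without N2 (9.74%). The median log2 fold change ran from -0.11 (without P2) to 0.08 (without P1). Total counts alone moved the median of all genes to 0.16 and that of the members to 0.12. The cause of these changes was not tested.

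For libraries of the same replicate number, r of their deviations from the group mean was -0.152, -0.231 and 0.053, beside 0.306 for P1 with N2. Deviations within a group of 3 sum to 0, so these values do not decide whether the number marks a pair. With the number as a block, an unadjusted p under 0.05 was found for 3 members higher and 0 lower, beside 5.44% and 6.1% of all tested genes, with a median of -0.01 and 0 adjusted calls.

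Signs turned in 50 cases over 17 genes. With total counts alone they were Mrpl27 0.050, Mrps18c 0.024, Mrps36 0.044, Mrpl58 0.016 and Adgre1 0.063. With N2 and P1 left out they were Mrps35 -0.24, Mrps36 0.060 and Mrpl58 0.072. After GC and length correction they were Mrpl54 -0.082, Mrpl14 -0.13, Mrps34 -0.32, Mrpl55 -0.11, Mrpl52 -0.12, Mrps18a -0.20, Mrps18c 0.11, Mrps36 0.047, Aurkaip1 -0.047, Mpv17l2 -0.028, mt-Co1 0.15 and Adgre1 0.026. Adding the replicate block to that gave Mrpl54 -0.080, Mrpl14 -0.14, Mrps34 -0.34, Mrpl55 -0.11, Mrpl52 -0.12, Mrps18a -0.20, Mrps18c 0.096, Mrps36 0.030, Aurkaip1 -0.045, Mpv17l2 -0.029 and mt-Co1 0.15. Leaving out 1 library gave ranges of -0.15 to 0.25 for Mrps35, -0.20 to 0.097 for Mrpl27, -0.35 to 0.089 for Mrps18c, -0.23 to 0.14 for Mrps36, -0.33 to 0.19 for Mrpl58, -0.12 to 0.35 for Mrps34, -0.029 to 0.76 for Mrps6, -0.11 to 0.18 for Mrpl55, -0.48 to 0.17 for Adgre1 and -0.050 to 0.29 for Itgam. Past the adjusted threshold under an alternative came Csf1r with no count filter (0.65), with DESeq2 (0.63) and without N2 and P1 (0.77), and Pnpt1, Trmt10c and Gabpa without N2 and P1. Csf1r was at 0.36 after GC and length correction. Mrps34 had 12 to 23 counts per library and Mrps26 36 to 126, which limits the precision of both.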
